A study of Homo sapiens with 16 samples.

Results

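Lysosomes are the acid compartments in which macrophages digest what they take up. Their lumen is acidified by the vacuolar proton pump (V-ATPase), whose V1 sector splits ATP in the cytosol and whose V0 sector carries protons through the membrane. Glycosidases, sulfatases, lipid hydrolases and peptidases work in that acid lumen, helped by small lipid-presenting activator proteins. Many of the genes are read by TFEB, TFE3 and MITF, related transcription factors that the nutrient sensor mTORC1 keeps in the cytoplasm, and that bind short palindromic elements near the gene starts.

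RNA levels of 45 lysosomal genes, picked by symbol, were followed here among 60664 genes listed in a count table of 16 libraries. They were 4 membrane proteins, 9 glycosidases, 6 sulfatases and glycosaminoglycan enzymes, 5 sphingolipid enzymes and activators, 3 proteins of the neuronal ceroid lipofuscinoses, the channel MCOLN1, the 3 transcription factors and 14 subunits and partners of the proton pump. All 45 were found, and 44 of them were among the 15301 genes with enough counts to be tested. The exception was ATP6V0C, the proton-carrying ring subunit, which had 43 counts over all libraries. A pair of unnamed coding genes on its strand spanned 6254 and 6267 bases of it and were both listed at 0, and whether its count reflects its level was not tested. In all, 13 of the 45 genes overlapped another listed gene on their own strand. An unnamed one shared 35058 bases with HEXA (6 counts), 43993 with IDS (72), 7940 with NAGLU (0) and 3827 with TPP1 (0). The part of such overlaps in the counts was not tested.

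The cells were macrophages made from THP-1, a human monocytic leukaemia line labelled as wild type, by 48 hours in the phorbol ester PMA at 100 ng/mL. In 4 groups of 4 libraries each, they stayed unpolarized (M0), shared the medium for 48 hours with iMSCs, mesenchymal stem cells made from induced pluripotent cells, in the upper chamber of a Transwell (M0+iMSC), received 100 ng/mL LPS of Porphyromonas gingivalis and 20 ng/mL interferon-gamma for 48 hours (M0+LPS/IFNg), or had both (M0+LPS/IFNg+iMSC). The study asked whether the stem cells hold macrophages back from the inflammatory M1 state. All groups carry the PMA treatment and come from a single leukaemia line, the time at which M0 cells were collected is not given for that group, and no label ties the libraries of a group to separate cultures, so the p-values speak of the spread between these libraries, which may be technical. In bulk RNA, fewer cells of a type and less RNA per cell cannot be told apart.

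Library totals ran from about 17336600 to about 24368800 counts. The 45 genes took 1.12% ± 0.0153 of the counts in M0, 1.15% ± 0.0796 in M0+iMSC, 0.919% ± 0.166 in M0+LPS/IFNg and 1.46% ± 0.0150 in M0+LPS/IFNg+iMSC (mean ± SD, n = 4 in each group, as for all means here). Of 10 macrophage markers 9 were tested and none of the 10 was at 0 in any library, but CD68 had 59 counts over all libraries, with group means from 0.0974 to 0.28 CPM. An unnamed noncoding gene on its strand shares 2534 bases with CD68 and had 1 count, so, as for ATP6V0C, whether the count reflects the level was not tested. CPM are counts scaled to the library total after TMM, a scaling that takes most genes as level. Replicate 4 of M0+LPS/IFNg stood apart from the other libraries of its group, with 515 of 8240 genes at a mean of 10 CPM or more differing by 2-fold or more from the mean of the others, against at most 32 in any other library. It was high in most lysosomal genes, and calls and directions of the 45 genes that turn on it are given with and without it.

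Near the starts of these genes the letters of the TFEB-type element could be read. RefSeq promoter windows of GRCh38.p14, from 250 bases before to 50 bases after the gene start, were in the table for 33 of the 45 genes. A gene could have several windows and was counted if any of them matched. The 6-letter E-box CACGTG, which reads the same on both strands, was found in 10 of the 33 (30.3%), against 8.77% of 27305 genes. The longer form TCACGTG, searched on both strands and always containing an E-box, was in 9 of the 33 (27.3%), against 4.49%. Counted by window, the E-box was in 11 of 52 (21.2%), against 7.26% of 35116. The longer form was in 10 of 52 windows (19.2%), against 3.71%. The genes with an E-box were LAMP1, CD63, GAA, NEU1, ARSB, CLN3, MCOLN1, ATP6V0B, ATP6V0D1 and ATP6V1G1. A match is only a description of letters, and windows without it say nothing about the factors.

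The windows of 5 of these genes are printed 5′ to 3′ on the gene's strand, because they span a membrane protein, an enzyme, a ceroid lipofuscinosis protein, the channel and a pump subunit, and because these genes went different ways in the comparisons. E-boxes are in capitals. LAMP1 is at chr13:113296989-113297288 (plus strand), GAA at chr17:80101331-80101630 (plus), CLN3 at chr16:28492033-28492332 (minus), MCOLN1 at chr19:7522374-7522673 (plus) and ATP6V0B at chr1:43974710-43975009 (plus). LAMP1 has 6 E-boxes in its 300 bases, and each of the others has 2.
LAMP1: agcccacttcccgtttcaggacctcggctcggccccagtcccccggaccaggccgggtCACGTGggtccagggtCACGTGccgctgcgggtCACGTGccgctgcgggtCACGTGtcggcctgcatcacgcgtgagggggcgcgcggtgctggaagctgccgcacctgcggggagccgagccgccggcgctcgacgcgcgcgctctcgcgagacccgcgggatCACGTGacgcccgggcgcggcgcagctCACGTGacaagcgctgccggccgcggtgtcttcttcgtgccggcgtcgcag
GAA: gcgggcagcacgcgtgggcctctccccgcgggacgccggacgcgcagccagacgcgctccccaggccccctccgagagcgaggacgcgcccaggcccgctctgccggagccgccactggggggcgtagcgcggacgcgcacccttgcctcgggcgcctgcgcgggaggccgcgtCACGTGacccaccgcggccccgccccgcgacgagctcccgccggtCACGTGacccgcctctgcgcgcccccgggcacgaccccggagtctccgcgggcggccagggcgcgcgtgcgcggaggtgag
CLN3: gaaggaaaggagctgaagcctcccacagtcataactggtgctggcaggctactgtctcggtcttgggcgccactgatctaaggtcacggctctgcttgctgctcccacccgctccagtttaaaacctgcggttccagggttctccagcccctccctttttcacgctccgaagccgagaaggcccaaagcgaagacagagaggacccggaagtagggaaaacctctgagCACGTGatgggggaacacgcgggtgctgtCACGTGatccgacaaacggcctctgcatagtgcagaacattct
MCOLN1: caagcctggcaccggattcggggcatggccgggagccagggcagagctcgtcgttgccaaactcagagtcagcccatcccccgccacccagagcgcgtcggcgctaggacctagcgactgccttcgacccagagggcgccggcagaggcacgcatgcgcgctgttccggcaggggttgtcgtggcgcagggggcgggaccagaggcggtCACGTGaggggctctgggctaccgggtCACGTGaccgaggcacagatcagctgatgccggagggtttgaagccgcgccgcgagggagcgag
ATP6V0B: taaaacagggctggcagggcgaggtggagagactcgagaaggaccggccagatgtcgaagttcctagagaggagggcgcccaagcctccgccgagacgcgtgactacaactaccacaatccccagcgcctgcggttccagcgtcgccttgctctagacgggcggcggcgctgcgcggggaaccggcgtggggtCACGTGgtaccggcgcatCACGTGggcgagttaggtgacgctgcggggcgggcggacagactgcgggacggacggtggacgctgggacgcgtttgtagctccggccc

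Stimulation with LPS and interferon-gamma, compared with M0, raised several glycosidases and the channel MCOLN1 and lowered TFEB and MITF. It raised 12 of 13 tested proton pump genes by a small amount under TMM scaling, but 0 of them with library totals and no factors. Of the 44 tested genes 23 were higher and 8 lower by edgeR's quasi-likelihood test at an adjusted p under 0.05, where 57.4% of all 15301 genes were called (29.1% higher, 28.3% lower). Their median log2 fold change was 0.22, against 0.01 over all genes. In 22 genes every stimulated library was above every M0 library and in 6 every one was below, where the groups did not overlap in 52.2% of all genes. The pump had 12 higher and 1 lower of 13 tested, with a median of 0.25. The enzymes, activators and ceroid lipofuscinosis proteins had 8 higher and 5 lower of 23, with a median of 0.10. With library totals the median of all genes moved to -0.25, the median of the pump to -0.01, and 3 pump genes were lower, with 10 of the 44 genes higher and 14 lower, where 61.8% of all genes were called (16.5% higher, 45.3% lower). The count of lower genes was 12 without replicate 4 of M0+LPS/IFNg, with 22 higher (59.1% of all genes called, 29.7% higher and 29.4% lower), and 5 without its replicate 1, 2 or 3.

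Co-culture without stimulation, compared with M0, lowered all 3 transcription factors, MCOLN1 and 7 of 13 pump genes and raised several enzymes. Of the 44 genes 14 were higher and 17 lower, where 69.8% of all genes were called (36.2% higher, 33.6% lower), and the median was -0.04 against 0.03 over all genes. The groups did not overlap in 17 genes that were above and 20 that were below M0, against 69% of all genes. Without replicate 4 of M0+LPS/IFNg, which is in neither group but changes the shared spread, the filter and the scaling, 18 were higher and 20 lower (74.4% of all genes called, 38.5% higher and 35.9% lower). Of the pump genes 3 were higher and 7 lower, with a median of -0.11, which was 0.03 with library totals and no factors (4 higher, 5 lower; over the 44 genes 16 higher and 14 lower, where 69.5% of all genes were called, 42.7% higher and 26.7% lower). Of the enzyme classes 10 were higher and 4 lower of 23, with a median of 0.26.

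Co-culture under stimulation, compared with M0+LPS/IFNg, moved the pump and the enzymes apart. Of 13 pump genes 9 were lower and 1 was higher, with a median of -0.75, and of the 23 enzymes, activators and ceroid lipofuscinosis proteins 12 were higher and 3 lower, with a median of 0.45. Over all 44 genes 15 were higher and 15 lower, with a median of 0.13, where 74.7% of all genes were called (38.4% higher, 36.3% lower; median 0.03). The groups did not overlap in 11 genes above and 14 below, against 65.9% of all genes. Without replicate 4 of M0+LPS/IFNg, in a fit that drops this library, 24 were higher and 15 lower, where 77.5% of all genes were called (40.3% higher, 37.3% lower). The split of the pump then stayed at 9 lower, with 2 higher. With library totals and no factors, where the median of all genes moved to 0.50, 27 of the 44 genes were higher and 11 lower, where 79% of all genes were called (59% higher, 20% lower). The pump then had 9 lower and 4 higher.

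Stimulation in co-culture, M0+LPS/IFNg+iMSC against M0+iMSC, gave 22 higher and 11 lower genes, where 74.4% of all genes were called (39.3% higher, 35.1% lower). The groups did not overlap in 25 genes above and 12 below, against 70.2% of all genes. Without replicate 4 of M0+LPS/IFNg the counts were 26 and 12 (78.3% of all genes called, 41.5% higher and 36.8% lower). Here 8 pump genes were lower and 4 higher, and 13 of the enzyme classes were higher and 2 lower. The interaction tests whether the co-culture effect under stimulation differs from that without it. It was positive for 14 and negative for 12 of the 44 genes, where 62.1% of all genes were called (31.1% positive, 31.1% negative). Without replicate 4 it was positive for 25 and negative for 12 (66.3% of all genes called, 34.1% positive and 32.2% negative). With library totals and no factors it was positive for 24 and negative for 9 (66.3% of all genes called, 45.9% positive and 20.3% negative). All 3 transcription factors were among the positive ones, and 8 of 13 pump genes among the negative ones. The 4 comparisons share groups with each other, so their results are not independent.

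**Figure D1:**
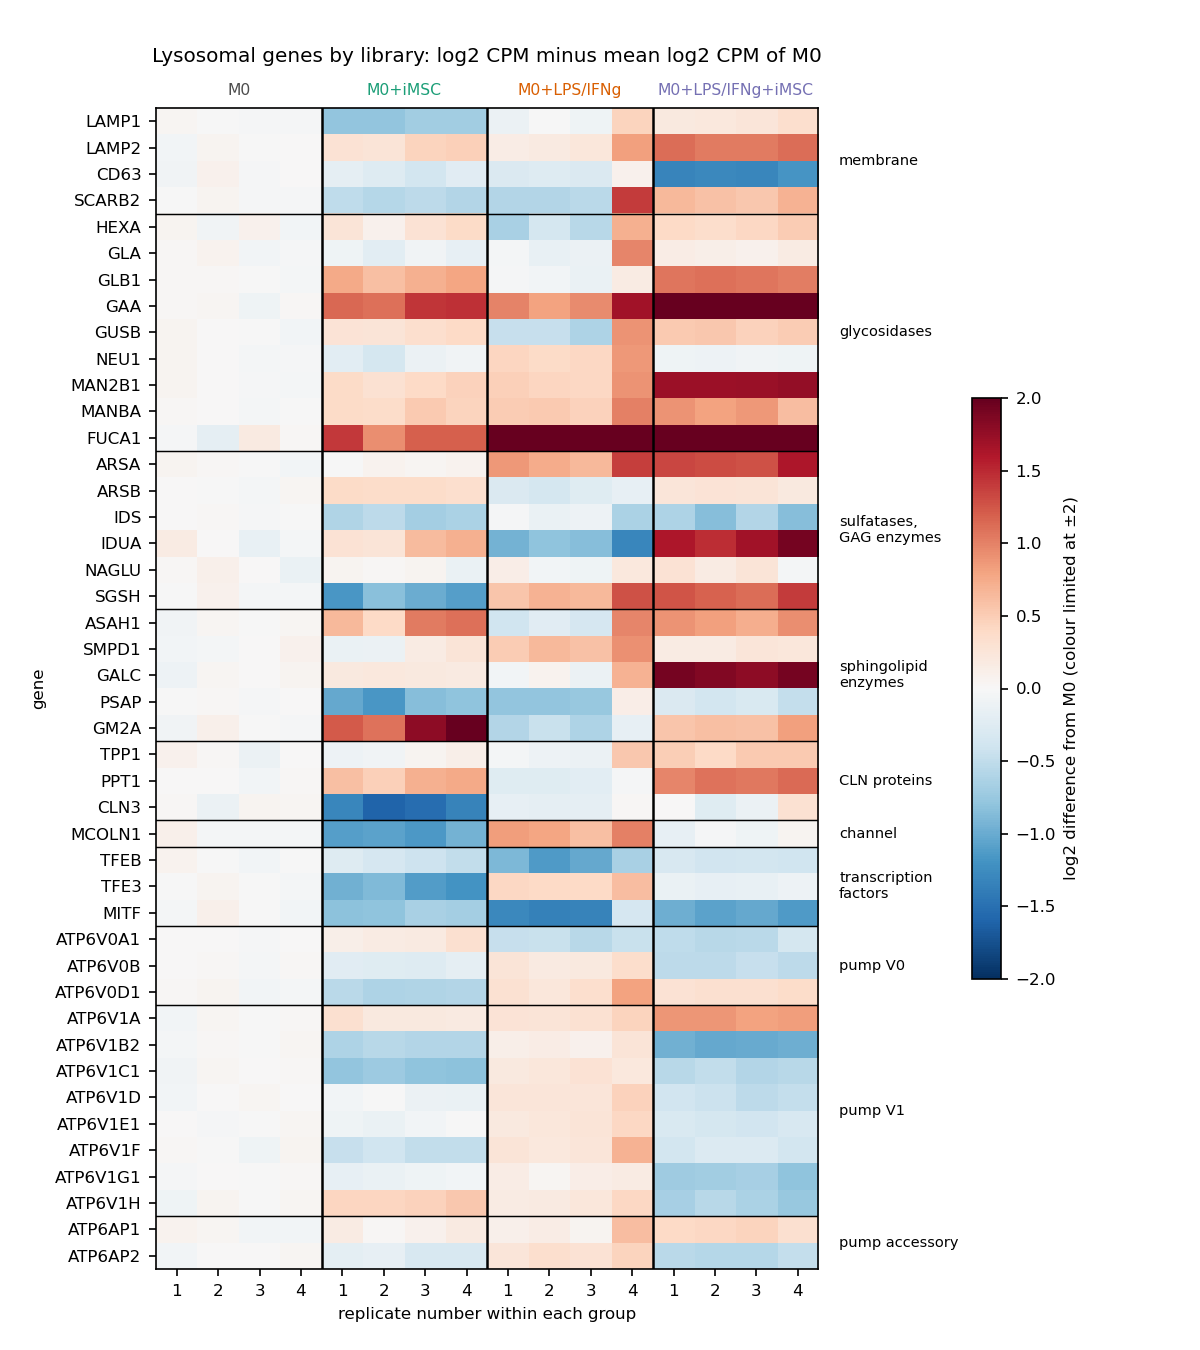
Level of each of the 44 tested genes in each library, as log2 CPM minus the mean log2 CPM of the M0 libraries; rows are genes by class, columns are libraries by group, and colour runs from blue (lower) to red (higher), limited at 2 either way. Replicate 4 of M0+LPS/IFNg is redder than the other libraries of its group in most rows, the V1 rows other than ATP6V1A turn from pale red to blue from the third group to the last, and FUCA1, GAA, GALC and MAN2B1 are dark red in the last group.

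**Figure D2:**
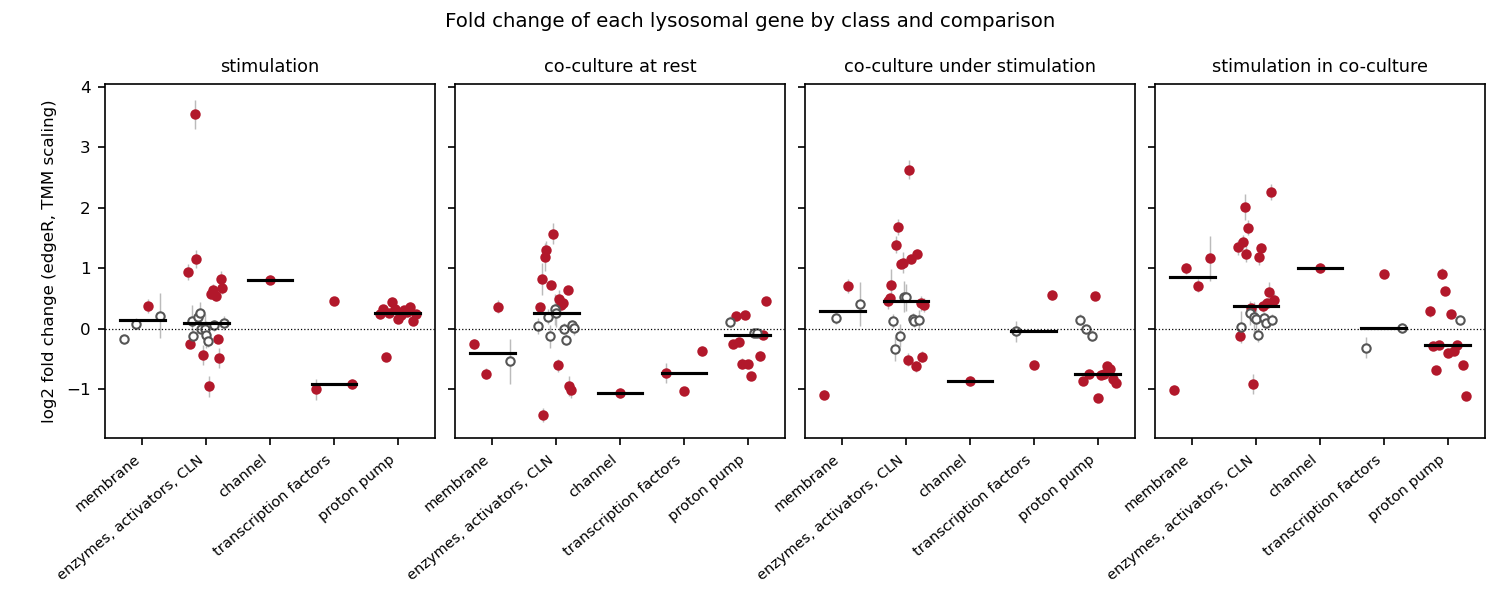
Log2 fold change of each tested gene in the 4 comparisons of groups, by class; filled points passed an adjusted p of 0.05, open points did not, thin lines are standard errors and bars are class medians. The pump median lies at 0.25 for stimulation (-0.01 with library totals and no factors) and at -0.75 for co-culture under stimulation, while the enzyme median lies at 0.10 and 0.45.

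Gene identifiers and positions are those of the deposited table, on GRCh38.p13. The transcription factors come first. TFEB (ENSG00000112561, chr6:41683978-41736259), a main activator of lysosomal genes, was measured at 33.5, 31.7, 30.5 and 31.4 CPM in M0, 26.6, 25.1, 23.7 and 22.5 CPM in M0+iMSC, 17, 14.5, 15.6 and 20.2 CPM in M0+LPS/IFNg and 25.3, 24.4, 24.7 and 24.2 CPM in M0+LPS/IFNg+iMSC. Stimulated libraries were the lowest and M0 the highest, and neither overlapped another group. TFEB was 1.89-fold lower under stimulation (-0.92 ± 0.08 on the log2 scale, adjusted p = 6.59e-08) and 1.3-fold lower in resting co-culture (-0.38 ± 0.08 on the log2 scale, adjusted p = 0.000582). Under stimulation it was 1.47-fold higher with the stem cells (0.55 ± 0.08 on the log2 scale, adjusted p = 1.21e-05), and the co-cultured groups overlapped each other. Its interaction was 0.93 ± 0.12 (adjusted p = 2.79e-06).

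TFE3 (ENSG00000068323, chrX:49028726-49043410), its close relative, was measured at 131, 136, 129.6 and 127 CPM in M0, 67.2, 70.7, 60.2 and 57.1 CPM in M0+iMSC, 174, 173, 173 and 201 CPM in M0+LPS/IFNg and 119, 117, 118 and 122 CPM in M0+LPS/IFNg+iMSC. None of the 4 groups overlapped another, and the order was resting co-culture, stimulated co-culture, M0, stimulated. TFE3 was 1.38-fold higher under stimulation (0.46 ± 0.06 on the log2 scale, adjusted p = 8.5e-06), opposite in direction to TFEB. It was 2.05-fold lower in resting co-culture (-1.04 ± 0.06 on the log2 scale, adjusted p = 3.16e-10) and 1.51-fold lower in co-culture under stimulation (-0.60 ± 0.06 on the log2 scale, adjusted p = 1.69e-07). With library totals and no factors the latter difference was -0.12 and no longer called.

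MITF (ENSG00000187098, chr3:69739464-69968336), the third family member, was measured at 49.7, 55, 51.2 and 49.2 CPM in M0, 28.9, 29.4, 32.8 and 31.9 CPM in M0+iMSC, 21, 20.1, 20.3 and 40.8 CPM in M0+LPS/IFNg and 25.9, 24.5, 25.1 and 23.3 CPM in M0+LPS/IFNg+iMSC. M0 lay above all other libraries, and in M0+LPS/IFNg replicate 4 read far above the rest of its group and above every co-cultured library. MITF was 2.01-fold lower under stimulation (-1.01 ± 0.17 on the log2 scale, adjusted p = 0.000138) and 1.67-fold lower in resting co-culture (-0.74 ± 0.17 on the log2 scale, adjusted p = 0.00124). Under stimulation the co-culture difference was -0.04 (adjusted p = 0.825) with all libraries and 0.27 (adjusted p = 0.000656) without replicate 4.

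MCOLN1 (ENSG00000090674, chr19:7522624-7534009), the calcium channel of the lysosomal membrane, was measured at 20.9, 18.9, 19 and 18.9 CPM in M0, 9.05, 9.28, 8.79 and 10.1 CPM in M0+iMSC, 34.5, 33.5, 29.3 and 38.9 CPM in M0+LPS/IFNg and 17.3, 19.1, 18.2 and 20.1 CPM in M0+LPS/IFNg+iMSC. Stimulated libraries were the highest, resting co-culture the lowest, and M0 and stimulated co-culture overlapped. It was 1.75-fold higher under stimulation (0.81 ± 0.08 on the log2 scale, adjusted p = 1.9e-07), 2.09-fold lower in resting co-culture (-1.06 ± 0.08 on the log2 scale, adjusted p = 6.08e-09) and 1.82-fold lower in co-culture under stimulation (-0.87 ± 0.08 on the log2 scale, adjusted p = 2.88e-08). Higher under stimulation and lower in both co-culture comparisons was the commonest combination of calls, found in 8 of the 44 genes: MCOLN1, TFE3 and the pump genes ATP6V0B, ATP6V1B2, ATP6V1C1, ATP6V1F, ATP6V1G1 and ATP6AP2. Over all genes 29.1% were higher with stimulation, 33.6% lower in resting co-culture and 36.3% lower in co-culture under stimulation. The share with the whole combination was not counted. With library totals and no factors these pump genes lost the call for stimulation. MCOLN1 overlaps the neighbouring PNPLA6 by 6 bases on its own strand.

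**Figure D3:**
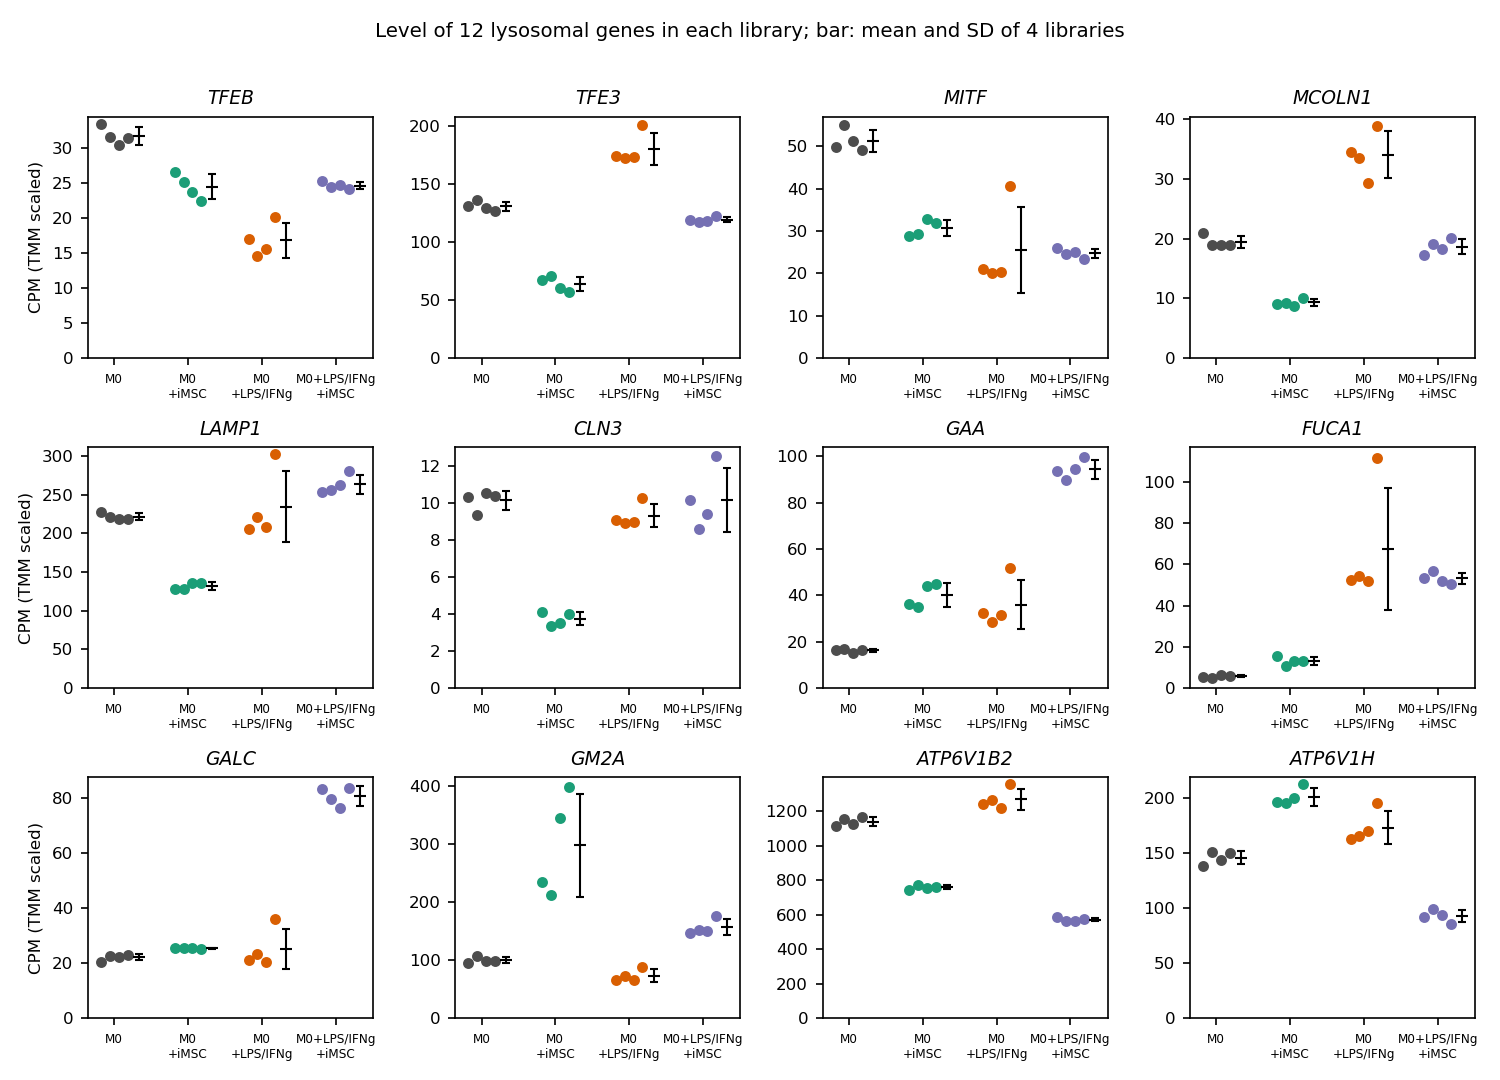
CPM of 12 genes in each of the 16 libraries on linear axes from 0, with the group mean and SD (n = 4) beside the points. TFEB falls from M0 to M0+LPS/IFNg while TFE3 and MCOLN1 rise, GALC stands at 76.2 CPM or more in M0+LPS/IFNg+iMSC and at 35.9 or less elsewhere, and the topmost orange point of nearly every panel is replicate 4.

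Counts of each class stand beside 57.4% of all genes called for stimulation, 69.8% for resting co-culture and 74.7% for co-culture under stimulation. Without replicate 4 of M0+LPS/IFNg the last share was 77.5%. Of the 4 membrane proteins 1 was higher and 0 lower with stimulation, 1 higher and 2 lower in resting co-culture, and 1 higher and 1 lower in co-culture under stimulation (3 higher and 1 lower without replicate 4). LAMP1 (ENSG00000185896, chr13:113297239-113323672), an abundant glycoprotein of the lysosomal membrane, was measured at 228, 221, 219 and 219 CPM in M0, 128, 128, 136 and 136 CPM in M0+iMSC, 205, 222, 209 and 303 CPM in M0+LPS/IFNg and 254, 257, 263 and 281 CPM in M0+LPS/IFNg+iMSC. Resting co-culture lay below all other groups, and replicate 4 of M0+LPS/IFNg lay above all other libraries. LAMP1 was 1.68-fold lower in resting co-culture (-0.75 ± 0.09 on the log2 scale, adjusted p = 1.3e-06) and the co-culture difference under stimulation was not called (0.17, adjusted p = 0.105; 0.31 and 2.49e-06 without replicate 4). Its interaction was 0.91 ± 0.13 (adjusted p = 9.65e-06).

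CD63 (ENSG00000135404, chr12:55725323-55729707), a tetraspanin of late endosomes and lysosomes, was measured at 1019, 1125, 1048 and 1069 CPM in M0, 940.2, 894, 824 and 913 CPM in M0+iMSC, 872, 890.0, 867 and 1136 CPM in M0+LPS/IFNg and 429, 433, 429 and 472 CPM in M0+LPS/IFNg+iMSC. Every library of stimulated co-culture lay far below every other library. CD63 was 2.14-fold lower in co-culture under stimulation (-1.09 ± 0.08 on the log2 scale, adjusted p = 8.11e-10) and 1.19-fold lower in resting co-culture (-0.25 ± 0.08 on the log2 scale, adjusted p = 0.00702). LAMP2, which also serves in chaperone-mediated autophagy, went the other way, from 259 ± 63.4 CPM in M0+LPS/IFNg to 422 ± 12.1 in M0+LPS/IFNg+iMSC (0.70 ± 0.11 on the log2 scale, adjusted p = 3e-05), and was also higher in the other 3 comparisons.

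SCARB2 (ENSG00000138760, chr4:76158737-76234536), the receptor that carries beta-glucocerebrosidase to lysosomes, was measured at 357, 374, 354 and 354 CPM in M0, 253, 243, 252 and 239 CPM in M0+iMSC, 239, 239, 248 and 943 CPM in M0+LPS/IFNg and 565, 542, 525 and 582 CPM in M0+LPS/IFNg+iMSC. Replicate 4 of M0+LPS/IFNg was the highest of all libraries, and the other 3 of its group were among the lowest. With all libraries no change was called for stimulation (0.21, adjusted p = 0.649) or co-culture under stimulation (0.41, adjusted p = 0.331). Without replicate 4 the values were -0.57 (adjusted p = 2.74e-10) and 1.19 (adjusted p = 3.18e-16), so the direction of the stimulation difference turned on this library.

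Of the 9 glycosidases, which trim sugars from glycoproteins, glycolipids and glycogen, 5 were higher and 0 lower under stimulation by edgeR's test, 5 higher and 0 lower in resting co-culture, and 3 higher and 1 lower in co-culture under stimulation (7 higher and 1 lower without replicate 4). The shares called in either direction were 55.6%, 55.6% and 44.4%, against 57.4%, 69.8% and 74.7% of all genes. Of all genes 29.1%, 36.2% and 38.4% were higher. The largest difference of any lysosomal gene under stimulation was in FUCA1 (ENSG00000179163, chr1:23845077-23868290), the enzyme that removes fucose, measured at 5.63, 5.06, 6.5 and 5.86 CPM in M0, 15.4, 11, 13.1 and 13.1 CPM in M0+iMSC, 52.2, 54.3, 51.9 and 112 CPM in M0+LPS/IFNg and 53.5, 56.9, 52 and 50.2 CPM in M0+LPS/IFNg+iMSC. All stimulated libraries were above all unstimulated ones, and replicate 4 stood far above the rest of its group. FUCA1 was 11.7-fold higher under stimulation (3.54 ± 0.24 on the log2 scale, adjusted p = 1.04e-08) and 2.28-fold higher in resting co-culture (1.19 ± 0.23 on the log2 scale, adjusted p = 0.000383). Under stimulation the stem cells made no called difference (-0.34, adjusted p = 0.141), and the interaction was -1.53 ± 0.31 (adjusted p = 0.000621; -1.17 and 1.35e-08 without replicate 4).

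GAA (ENSG00000171298, chr17:80101556-80119881), the acid alpha-glucosidase that digests glycogen, was measured at 16.5, 16.7, 15.3 and 16.5 CPM in M0, 36.2, 35.1, 44 and 44.9 CPM in M0+iMSC, 32.4, 28.5, 31.4 and 51.9 CPM in M0+LPS/IFNg and 93.8, 89.7, 94.4 and 99.8 CPM in M0+LPS/IFNg+iMSC. M0 was below and stimulated co-culture above all other libraries. GAA was 2.21-fold higher under stimulation (1.15 ± 0.15 on the log2 scale, adjusted p = 8.16e-06), 2.46-fold higher in resting co-culture (1.30 ± 0.15 on the log2 scale, adjusted p = 1.14e-06) and 2.62-fold higher in co-culture under stimulation (1.39 ± 0.14 on the log2 scale, adjusted p = 2.68e-07). Its interaction was 0.09 ± 0.21 and was not called (adjusted p = 0.725), but was 0.32 and called without replicate 4 (adjusted p = 0.0126). GAA, MAN2B1, LAMP2 and ATP6V1A were the 4 genes higher in all 3 of stimulation, resting co-culture and co-culture under stimulation. How many of all genes had this combination was not counted.

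MAN2B1, lysosomal alpha-mannosidase, reached 486 ± 7.18 CPM in M0+LPS/IFNg+iMSC from 218 ± 37.1 in M0+LPS/IFNg (1.16 ± 0.08 on the log2 scale, adjusted p = 7.62e-10). GLB1, acid beta-galactosidase, rose from 40.8 ± 3.64 to 85.9 ± 1.91 CPM (1.07 ± 0.06 on the log2 scale, adjusted p = 3.16e-11) and from 41.1 ± 0.755 in M0 to 67.6 ± 4 in resting co-culture (0.72 ± 0.06 on the log2 scale, adjusted p = 9.73e-09). MANBA, beta-mannosidase, rose with stimulation (0.64 ± 0.10 on the log2 scale, adjusted p = 2.56e-05) and in resting co-culture (0.43 ± 0.10 on the log2 scale, adjusted p = 0.000835). In co-culture under stimulation it gave 0.16 (adjusted p = 0.149) with all libraries and 0.30 (adjusted p = 8.56e-05) without replicate 4. NEU1, the lysosomal sialidase, was the glycosidase that fell in co-culture under stimulation, from 167 ± 29.2 to 108 ± 0.969 CPM (-0.63 ± 0.09 on the log2 scale, adjusted p = 5.05e-06), after a rise with stimulation (0.54 ± 0.09 on the log2 scale, adjusted p = 5.43e-05). With library totals and no factors that fall was -0.15 and not called.

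HEXA (the alpha subunit of beta-hexosaminidase), GUSB (beta-glucuronidase) and GLA (alpha-galactosidase A) passed the test in none of the 5 contrasts with all libraries. HEXA read 22.7, 28, 24.3 and 58.7 CPM and GUSB 32.7, 32.7, 29.5 and 84.5 CPM in the M0+LPS/IFNg libraries in the order of replicates, so the last value set the spread. Without it, stimulation gave -0.52 for HEXA (adjusted p = 3.9e-06) and -0.52 for GUSB (adjusted p = 3.21e-08). Co-culture under stimulation then gave 0.93 for HEXA (adjusted p = 1.57e-10) and 1.02 for GUSB (adjusted p = 9.17e-14). For GLA that last difference was -0.12 with all libraries and 0.23 without this library (adjusted p = 0.000152).

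The sulfatases and glycosaminoglycan enzymes had 2 higher and 2 lower of 6 under stimulation, the same numbers in resting co-culture, and 4 higher and 1 lower in co-culture under stimulation. ARSA (ENSG00000100299, chr22:50622754-50628173), which desulfates sulfatide, was measured at 15, 14.7, 14.4 and 13.9 CPM in M0, 14.4, 15.3, 14.9 and 15.3 CPM in M0+iMSC, 26.4, 24.2, 22.7 and 38 CPM in M0+LPS/IFNg and 36.5, 35.7, 35.3 and 44.7 CPM in M0+LPS/IFNg+iMSC. M0 and resting co-culture overlapped below both stimulated groups. ARSA was 1.91-fold higher under stimulation (0.93 ± 0.13 on the log2 scale, adjusted p = 7.34e-06), did not pass the test in resting co-culture (0.04, adjusted p = 0.776), and was 1.37-fold higher in co-culture under stimulation (0.45 ± 0.12 on the log2 scale, adjusted p = 0.0029), where replicate 4 of M0+LPS/IFNg lay among the co-cultured libraries.

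SGSH (ENSG00000181523, chr17:80206716-80220923), the sulfamidase of heparan sulfate breakdown, was measured at 14.5, 15.5, 14.1 and 14.1 CPM in M0, 6.53, 8.15, 7.32 and 6.81 CPM in M0+iMSC, 21.4, 23.5, 22.8 and 35.2 CPM in M0+LPS/IFNg and 34.7, 32.9, 31.6 and 38.3 CPM in M0+LPS/IFNg+iMSC. Resting co-culture was the lowest group and did not overlap M0, and all stimulated libraries were above both. SGSH was 1.77-fold higher under stimulation (0.82 ± 0.13 on the log2 scale, adjusted p = 2.78e-05) and 2.03-fold lower in resting co-culture (-1.02 ± 0.13 on the log2 scale, adjusted p = 2.69e-06), but 1.34-fold higher in co-culture under stimulation (0.42 ± 0.12 on the log2 scale, adjusted p = 0.005). Its interaction was 1.44 ± 0.18 (adjusted p = 2.57e-06). SGSH shares 1225 bases with SLC26A11 on the other strand, which had 7103 counts over all libraries against its 6966, and no source used here states the strand setting.

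IDUA (ENSG00000127415, chr4:986997-1004564), alpha-iduronidase, was a low gene at 2.24, 2, 1.8 and 1.94 CPM in M0, 2.44, 2.37, 3.1 and 3.25 CPM in M0+iMSC, 1.03, 1.14, 1.1 and 0.807 CPM in M0+LPS/IFNg and 6.11, 5.55, 6.34 and 7.49 CPM in M0+LPS/IFNg+iMSC. Its groups did not overlap, with stimulated libraries lowest and stimulated co-culture highest. It was 1.94-fold lower under stimulation (-0.96 ± 0.18 on the log2 scale, adjusted p = 0.000168) and 6.18-fold higher in co-culture under stimulation (2.63 ± 0.16 on the log2 scale, adjusted p = 8.97e-11), the largest log2 difference of any of the 44 genes in that comparison. IDS, iduronate sulfatase, fell in resting co-culture (-0.61 ± 0.11 on the log2 scale, adjusted p = 7.22e-05) and in co-culture under stimulation (-0.52 ± 0.11 on the log2 scale, adjusted p = 0.000351), the latter not called with library totals and no factors (-0.05). ARSB, which desulfates dermatan sulfate, rose in resting co-culture (0.36 ± 0.04 on the log2 scale, adjusted p = 9.14e-07) and in co-culture under stimulation (0.50 ± 0.04 on the log2 scale, adjusted p = 1.16e-08) and fell with stimulation (-0.26 ± 0.04 on the log2 scale, adjusted p = 6.91e-05). NAGLU, which removes N-acetylglucosamine from heparan sulfate, passed the test in no contrast, with group means from 11.9 to 13.4 CPM. As stated above, unnamed genes on the same strand cover parts of IDS and NAGLU, and whether their counts reflect their levels was not tested.

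The sphingolipid enzymes and activators had 1 higher and 2 lower of 5 under stimulation, 2 higher and 1 lower in resting co-culture, and 3 higher and 1 lower in co-culture under stimulation. GALC (ENSG00000054983, chr14:87837820-87993665), which digests galactosylceramide, was measured at 20.6, 22.7, 22.3 and 23 CPM in M0, 25.4, 25.7, 25.4 and 25.1 CPM in M0+iMSC, 21.2, 23.3, 20.5 and 35.9 CPM in M0+LPS/IFNg and 83.3, 79.6, 76.2 and 83.6 CPM in M0+LPS/IFNg+iMSC. Stimulated co-culture lay far above every other library. GALC was 3.2-fold higher in co-culture under stimulation (1.68 ± 0.13 on the log2 scale, adjusted p = 2.95e-09), did not pass the test in resting co-culture (0.20, adjusted p = 0.178), and had an interaction of 1.48 ± 0.18 (adjusted p = 1.98e-06). An unnamed long noncoding gene with 5290 counts shares 34472 bases with GALC on its strand, against 13558 counts for GALC.

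PSAP (ENSG00000197746, chr10:71816298-71851325), the precursor of the saposins and the most counted of the 45 genes in M0, was measured at 2742, 2784, 2693 and 2776 CPM in M0, 1347, 1223, 1526 and 1579 CPM in M0+iMSC, 1582, 1587, 1619 and 3028 CPM in M0+LPS/IFNg and 2249, 2131, 2235 and 1973 CPM in M0+LPS/IFNg+iMSC. M0 and replicate 4 of M0+LPS/IFNg were the highest, and the other 3 stimulated libraries lay just above resting co-culture. PSAP was 1.94-fold lower in resting co-culture (-0.95 ± 0.17 on the log2 scale, adjusted p = 0.000139) and 1.41-fold lower under stimulation (-0.49 ± 0.17 on the log2 scale, adjusted p = 0.0218), where it was -0.78 without replicate 4 (adjusted p = 1.35e-09). The call for stimulation was lost when replicate 1, 2 or 3 of M0+LPS/IFNg was left out. Co-culture under stimulation gave 0.14 (adjusted p = 0.478) with all libraries and 0.43 (adjusted p = 5.79e-06) without replicate 4.

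GM2A (ENSG00000196743, chr5:151212150-151270440), the activator protein that presents GM2 ganglioside to hexosaminidase, was measured at 95.2, 108, 99.3 and 98.2 CPM in M0, 235, 212, 344 and 398 CPM in M0+iMSC, 66.5, 73.4, 65.3 and 89.1 CPM in M0+LPS/IFNg and 147, 152, 150.3 and 177 CPM in M0+LPS/IFNg+iMSC. Resting co-culture was the highest group, but replicates 1 and 2 lay well below replicates 3 and 4, a split also seen in ASAH1 (310.1, 262, 406 and 428 CPM) and, by less, in GAA and PSAP. The split was not limited to lysosomal genes. Over the counted genes, chi-square per degree of freedom was 5.23 between replicates 1 and 2 and 3.39 between 3 and 4. Across these pairs it was 11.0 to 20.7. The part of this split in the results of resting co-culture was not tested. GM2A was 2.97-fold higher in resting co-culture (1.57 ± 0.17 on the log2 scale, adjusted p = 9.44e-07) and 2.13-fold higher in co-culture under stimulation (1.09 ± 0.17 on the log2 scale, adjusted p = 3.15e-05). Leaving out replicates 1 and 2 of M0+iMSC gave 1.89 for the resting difference, and leaving out 3 and 4 gave 1.16. Stimulation in co-culture lowered it (-0.93 ± 0.17 on the log2 scale, adjusted p = 0.000136).

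ASAH1, acid ceramidase, rose in resting co-culture (0.83 ± 0.27 on the log2 scale, adjusted p = 0.0137), a call lost when replicates 3 and 4 of M0+iMSC were left out together. Co-culture under stimulation gave 0.72 ± 0.27 (adjusted p = 0.0253) with all libraries and 1.17 (adjusted p = 3.5e-06) without replicate 4, whose 392 CPM stood above 3 libraries between 150.3 and 169 CPM. That call was lost when replicate 1, 2 or 3 of M0+LPS/IFNg or replicate 4 of M0+LPS/IFNg+iMSC was left out. With stimulation ASAH1 gave 0.13 (adjusted p = 0.704) with all libraries and -0.32 (adjusted p = 0.057) without replicate 4, neither called and of opposite sign. SMPD1, acid sphingomyelinase, rose with stimulation (0.67 ± 0.09 on the log2 scale, adjusted p = 1.01e-05) and fell in co-culture under stimulation (-0.47 ± 0.09 on the log2 scale, adjusted p = 0.000199). With library totals and no factors the fall of SMPD1 was gone (0.01).

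Of the 3 proteins lost in neuronal ceroid lipofuscinoses, 0 were higher and 1 lower with stimulation, 1 higher and 1 lower in resting co-culture, and 2 higher and 0 lower in co-culture under stimulation. PPT1 (ENSG00000131238, chr1:40072710-40097260), a thioesterase that removes palmitate, was measured at 1951, 1949, 1859 and 1975 CPM in M0, 2946, 2675, 3177 and 3251 CPM in M0+iMSC, 1629, 1636, 1661 and 1895 CPM in M0+LPS/IFNg and 3804, 4095, 3994 and 4235 CPM in M0+LPS/IFNg+iMSC. Both co-cultured groups lay above both groups without stem cells. PPT1 was 1.56-fold higher in resting co-culture (0.64 ± 0.07 on the log2 scale, adjusted p = 1.87e-07) and 2.36-fold higher in co-culture under stimulation (1.24 ± 0.07 on the log2 scale, adjusted p = 2.48e-11). TPP1, a peptidase, rose from 227 ± 55 to 296 ± 11.1 CPM in co-culture under stimulation (0.39 ± 0.11 on the log2 scale, adjusted p = 0.00622) and did not pass the test at rest.

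CLN3 (ENSG00000188603, chr16:28474111-28495575), a membrane protein of lysosomes, was measured at 10.3, 9.37, 10.5 and 10.4 CPM in M0, 4.08, 3.34, 3.53 and 4.02 CPM in M0+iMSC, 9.08, 8.92, 8.98 and 10.3 CPM in M0+LPS/IFNg and 10.2, 8.57, 9.38 and 12.5 CPM in M0+LPS/IFNg+iMSC. Resting co-culture stood well below all other libraries, and the other 3 groups overlapped. It was 2.7-fold lower in resting co-culture (-1.43 ± 0.12 on the log2 scale, adjusted p = 7.34e-09), gave no called difference in co-culture under stimulation (0.12, adjusted p = 0.309), and had an interaction of 1.55 ± 0.16 (adjusted p = 2.14e-07). CLN3 shares 933 bases with APOBR on the other strand, which had 42176 counts over all libraries against 2831 for CLN3, so its values are uncertain if strand was not used. An unnamed coding gene on its own strand shares 17988 bases with CLN3 and was listed at 0. Whether the count of CLN3 reflects its level was not tested.

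In the proton pump 9 of 13 tested genes were lower in co-culture under stimulation. Its summed level was 3289 ± 54.2 CPM in M0, 2727 ± 28.7 in M0+iMSC, 3840 ± 275 in M0+LPS/IFNg and 2417 ± 9.51 in M0+LPS/IFNg+iMSC, with replicate 4 of M0+LPS/IFNg at 4252. All 8 genes of the V1 sector were higher under stimulation (log2 differences 0.12 to 0.36). With library totals and no factors 0 were higher and 2 lower, where 16.5% of all genes were higher and 45.3% lower. Under TMM scaling 4 of the V1 genes were lower and 2 higher in resting co-culture, and 7 were lower and 1 higher in co-culture under stimulation (median -0.76). The summed level of the 23 enzymes, activators and ceroid lipofuscinosis proteins went the other way in stimulated cells, from 5256 ± 1285 to 8508 ± 87.2 CPM, with replicate 4 of M0+LPS/IFNg at 7183 and the other 3 libraries at 4634 or less. That sum is weighted to its most counted genes. Between the same groups PPT1 alone went from 1705 ± 127 to 4032 ± 181 CPM, and PSAP from 1954 ± 716 to 2147 ± 128.

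ATP6V1B2 (ENSG00000147416, chr8:20197381-20226819), the B subunit of the ATP-splitting head in most cells, was measured at 1115, 1154, 1130.0 and 1167 CPM in M0, 746, 776, 757 and 762 CPM in M0+iMSC, 1241, 1269, 1218 and 1358 CPM in M0+LPS/IFNg and 585, 563, 566 and 577 CPM in M0+LPS/IFNg+iMSC. None of the groups overlapped, with stimulated libraries highest and stimulated co-culture lowest. It was 2.22-fold lower in co-culture under stimulation (-1.15 ± 0.05 on the log2 scale, adjusted p = 3.71e-13) and 1.5-fold lower in resting co-culture (-0.59 ± 0.04 on the log2 scale, adjusted p = 3.55e-09). ATP6V1A (ENSG00000114573, chr3:113747033-113812056), the catalytic A subunit that pairs with it in the head, went up instead, at 98.2, 106, 102 and 104 CPM in M0, 128, 117, 117 and 116 CPM in M0+iMSC, 124, 122, 126 and 139 CPM in M0+LPS/IFNg and 189, 188, 179 and 183 CPM in M0+LPS/IFNg+iMSC. Stimulated co-culture was the highest group and M0 the lowest. ATP6V1A was the pump gene that rose in co-culture under stimulation (0.53 ± 0.05 on the log2 scale, adjusted p = 3.26e-08), and it also rose with stimulation (0.32 ± 0.05 on the log2 scale, adjusted p = 3.22e-05) and in resting co-culture (0.22 ± 0.05 on the log2 scale, adjusted p = 0.000719).

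ATP6V1H (ENSG00000047249, chr8:53715543-53843558), the regulatory H subunit, was measured at 138, 151, 144 and 149.6 CPM in M0, 196, 195, 199 and 212 CPM in M0+iMSC, 162, 165, 169.5 and 195 CPM in M0+LPS/IFNg and 92.1, 99.3, 93.5 and 85.8 CPM in M0+LPS/IFNg+iMSC. Resting co-culture was highest and stimulated co-culture lowest, each apart from all other libraries. ATP6V1H was 1.38-fold higher in resting co-culture (0.46 ± 0.06 on the log2 scale, adjusted p = 3.01e-06) but 1.86-fold lower in co-culture under stimulation (-0.90 ± 0.06 on the log2 scale, adjusted p = 5.04e-10). Its interaction of -1.36 ± 0.09 (adjusted p = 6.6e-10) was the most negative of the pump genes.

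The other V1 genes form the stalks and the rotor. ATP6V1C1, at 176 ± 6.19 CPM in M0, was lower in resting co-culture (-0.78 ± 0.04 on the log2 scale, adjusted p = 6.19e-11) and in co-culture under stimulation (-0.77 ± 0.04 on the log2 scale, adjusted p = 3.08e-11), with an interaction of 0.01 that was not called (adjusted p = 0.896). ATP6V1F likewise fell in resting co-culture (-0.46 ± 0.08 on the log2 scale, adjusted p = 8.37e-05) and in co-culture under stimulation (-0.68 ± 0.08 on the log2 scale, adjusted p = 8.71e-07). ATP6V1D fell in co-culture under stimulation (-0.75 ± 0.06 on the log2 scale, adjusted p = 1.24e-09), as did ATP6V1E1 (-0.62 ± 0.05 on the log2 scale, adjusted p = 4.83e-09), and in resting co-culture neither passed the test. ATP6V1G1 fell in co-culture under stimulation (-0.84 ± 0.05 on the log2 scale, adjusted p = 2.24e-11), and its difference in resting co-culture of -0.11 (adjusted p = 0.0433) turned to 0.03 with library totals and no factors.

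In the V0 sector, ATP6V0B, a subunit of the proton-carrying ring, fell from 362 ± 21 to 214 ± 4.28 CPM in co-culture under stimulation (-0.76 ± 0.05 on the log2 scale, adjusted p = 8.82e-11). ATP6V0D1, which joins the ring to the rotor, fell in resting co-culture (-0.58 ± 0.09 on the log2 scale, adjusted p = 1.69e-05) but gave -0.12 in co-culture under stimulation (adjusted p = 0.24). ATP6V0A1, the a1 form of the subunit that channels protons, was the pump gene that fell with stimulation (-0.47 ± 0.05 on the log2 scale, adjusted p = 8.15e-07), and rose in resting co-culture (0.20 ± 0.05 on the log2 scale, adjusted p = 0.00263). Of the accessory proteins, ATP6AP2, the prorenin receptor, fell in co-culture under stimulation (-0.87 ± 0.05 on the log2 scale, adjusted p = 1.3e-10) and at rest (-0.25 ± 0.05 on the log2 scale, adjusted p = 0.00041). ATP6AP1 rose with stimulation (0.25 ± 0.09 on the log2 scale, adjusted p = 0.0325), where its groups overlapped and the call was lost without replicate 4 (0.10, adjusted p = 0.0931). In co-culture under stimulation ATP6AP1 gave 0.15 (adjusted p = 0.159) with all libraries and 0.29 (adjusted p = 1.79e-05) without replicate 4.

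Per kilobase of exon, pump subunits differed widely from each other in M0. ATP6V1B2 stood at 399.7 ± 8.29 CPM per kilobase and its partner ATP6V1A at 22.4 ± 0.729. In M0+LPS/IFNg+iMSC these levels were 201 ± 3.59 and 40.5 ± 1.03 CPM per kilobase. CD63 had the highest level per kilobase of the 45 genes in M0, at 1041 ± 43.9, followed by PSAP at 1000.2 ± 15 and PPT1 at 847 ± 22.2. In M0+LPS/IFNg+iMSC PPT1 stood at 1765 ± 79.5, PSAP at 781 ± 46.4 and CD63 at 431 ± 20.4.

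The genes with E-boxes printed above were chosen partly because they went different ways, so their lack of a shared direction is not a result. In resting co-culture LAMP1, CLN3, MCOLN1 and ATP6V0B fell and GAA rose. With stimulation GAA, MCOLN1 and ATP6V0B rose, while LAMP1 and CLN3 did not pass the test. In co-culture under stimulation GAA rose, MCOLN1 and ATP6V0B fell, and LAMP1 and CLN3 did not pass the test. Of the E-box genes not printed, CD63, ATP6V0D1 and ATP6V1G1 fell in resting co-culture, ARSB rose and NEU1 did not pass the test. With stimulation NEU1, ATP6V0D1 and ATP6V1G1 rose, ARSB fell and CD63 did not pass. In co-culture under stimulation ARSB rose, CD63, NEU1 and ATP6V1G1 fell, and ATP6V0D1 did not pass.

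Replicate 4 of M0+LPS/IFNg read above the mean of the other 3 libraries in 40 of the 42 lysosomal genes with a mean of 10 CPM or more, by a median of 0.42 on the log2 scale. In 6 of them it was 2-fold or more above: SCARB2, GUSB, ASAH1, HEXA, FUCA1 and GLA. The largest was SCARB2, at 943 CPM against 239 to 248 in the others. The 13 pump genes differed by -0.03 to 0.51, and ATP6V1C1 and IDS were below the mean of the others. Without it 7 calls were gained in resting co-culture, with log2 differences of 0.25 for HEXA, 0.31 for GUSB, 0.19 for GALC, 0.10 for ATP6AP1, -0.55 for SCARB2, -0.13 for GLA and -0.19 for NEU1. With stimulation CD63 went from -0.18 (adjusted p = 0.0562) to -0.28 (adjusted p = 6.14e-05). With stimulation in co-culture 5 calls were gained, with 0.16 for HEXA, 0.26 for GLA, 0.19 for GUSB, -0.31 for MITF and 0.15 for ATP6V1F. The 11 interactions gained were positive, in LAMP2 (0.53), SCARB2 (1.74), HEXA (0.68), GLA (0.36), GAA (0.32), GUSB (0.71), ARSA (0.60), ARSB (0.18), TPP1 (0.57), MCOLN1 (0.27) and ATP6AP1 (0.19). The same library had 5039 CPM of summed macrophage markers against 2652 to 2709 in the other 3, and 801 CPM of summed stromal markers against 1155 to 1182. NT5E, the largest part of the stromal sum, read 697 CPM in it against 942 to 966. The part of these differences in the results was not tested.

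**Figure D4:**
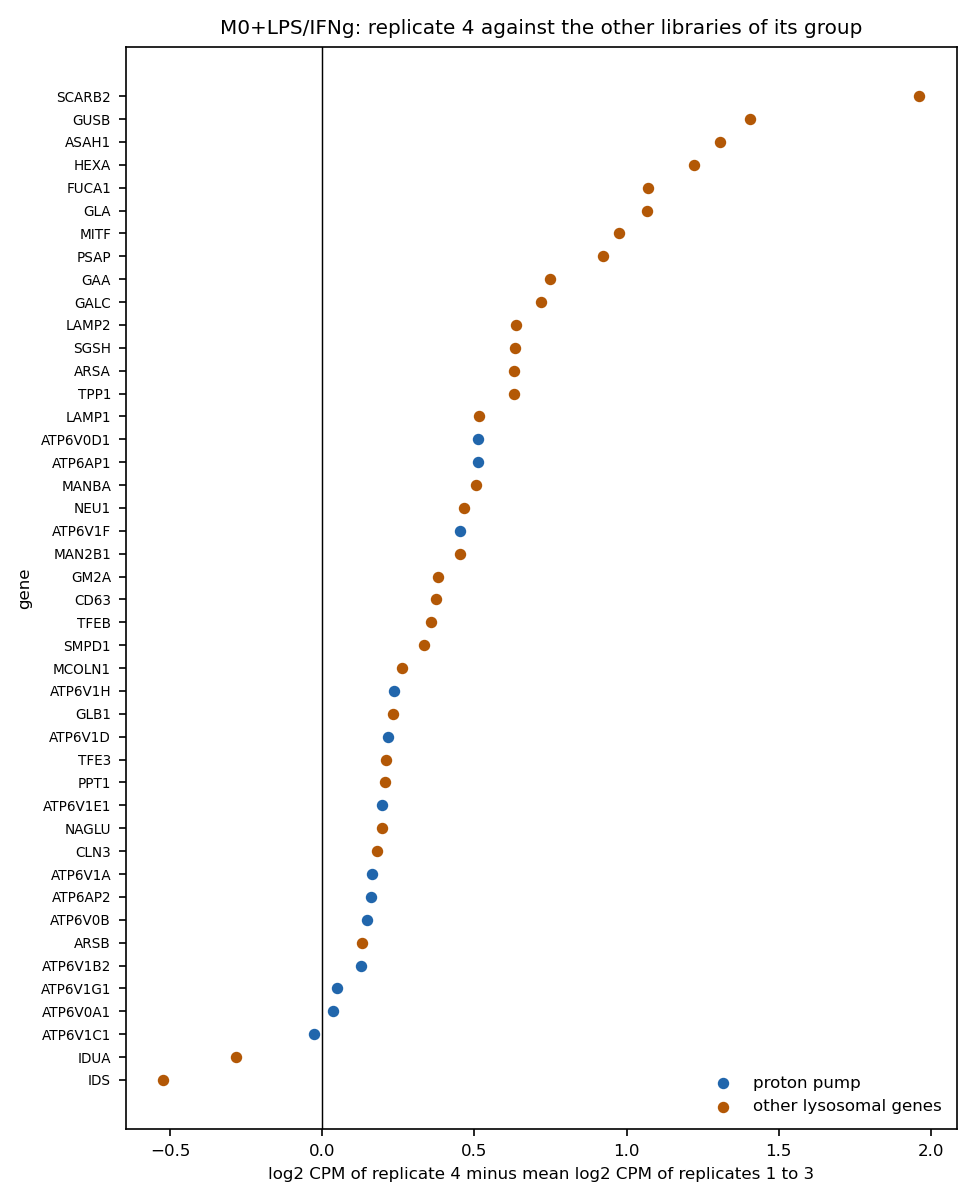
Log2 CPM of replicate 4 of M0+LPS/IFNg minus the mean log2 CPM of replicates 1 to 3, for each of the 44 tested genes in order of size; blue points are proton pump genes and brown points the others. SCARB2 lies at 1.96 and GUSB at 1.40, most pump genes lie between 0 and 0.5, and only ATP6V1C1, IDUA and IDS lie below 0.

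**Figure D5:**
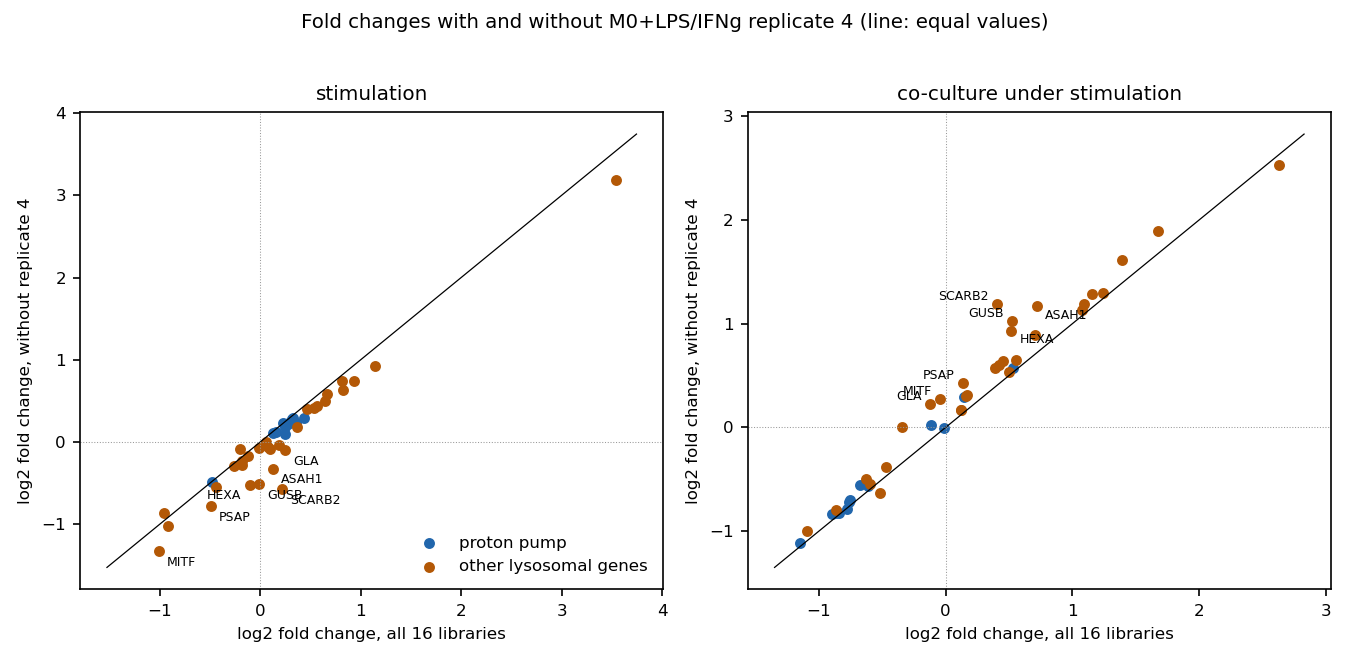
Log2 fold change of each tested gene with all 16 libraries (horizontal axis) and without replicate 4 of M0+LPS/IFNg (vertical axis), for stimulation (left) and co-culture under stimulation (right); the line marks equal values. Pump genes in blue lie close to the line in both panels, while SCARB2, GUSB, HEXA and ASAH1 lie below it on the left and above it on the right.

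Further genes of the pathway were read from lists taken by function. Over all tested genes 57.4% were called for stimulation, 69.8% for resting co-culture, 74.7% for co-culture under stimulation and 74.4% for stimulation in co-culture, and the counts of each list stand beside these shares. Of 34 tested among other hydrolases and transporters, 17 were higher and 8 lower with stimulation, 12 higher and 6 lower in resting co-culture, 18 higher and 9 lower in co-culture under stimulation (median 0.25; 23 higher and 10 lower without replicate 4), and 23 higher and 8 lower with stimulation in co-culture. In resting co-culture 15 of this list were higher and 9 lower without replicate 4 of M0+LPS/IFNg, where 74.4% of all genes were called. LGMN, the asparagine-cutting protease legumain, went from 7.19 ± 0.319 CPM in M0 to 38.5 ± 9.83 with stimulation (2.42 ± 0.16 on the log2 scale, adjusted p = 2.68e-09) and from 1.71 ± 0.377 to 31.2 ± 1.77 with stimulation in co-culture (4.19 ± 0.19 on the log2 scale, adjusted p = 7.07e-12). TPCN1, a cation channel of endosomes and lysosomes, rose in resting co-culture (2.15 ± 0.17 on the log2 scale, adjusted p = 2.7e-08) and in co-culture under stimulation (2.89 ± 0.17 on the log2 scale, adjusted p = 6.05e-10), to 321 ± 12.9 CPM. SCPEP1, a serine carboxypeptidase, rose with stimulation (1.85 ± 0.13 on the log2 scale, adjusted p = 8.67e-09) and in resting co-culture (2.14 ± 0.13 on the log2 scale, adjusted p = 1.02e-09). NPC1, which exports cholesterol, fell in co-culture under stimulation from 202 ± 47.1 to 59.7 ± 4.11 CPM (-1.75 ± 0.13 on the log2 scale, adjusted p = 3.83e-09).

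LIPA, lysosomal acid lipase, rose with stimulation in co-culture (1.82 ± 0.49 on the log2 scale, adjusted p = 0.00476). Its M0+LPS/IFNg libraries read 106, 112, 106 and 616 CPM in the order of replicates, so replicate 4 again stood above the others. With all libraries the stimulation difference of LIPA was 0.02 (adjusted p = 0.983), and without replicate 4 it was -1.10 (adjusted p = 2.95e-13).

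Of 11 other pump subunits tested, 5 were higher and 2 lower with stimulation, 3 higher and 5 lower in resting co-culture, 2 higher and 5 lower in co-culture under stimulation, and 4 higher and 5 lower with stimulation in co-culture. ATP6V1C2 and ATP6V0D2, tissue-restricted forms of the C and d subunits, were low genes that fell in co-culture under stimulation. In that comparison ATP6V1C2 went from 3.01 ± 0.443 to 0.619 ± 0.219 CPM (-2.27 ± 0.21 on the log2 scale, adjusted p = 3.15e-08) and ATP6V0D2 from 2.03 ± 0.927 to 0.42 ± 0.0588 CPM (-2.25 ± 0.31 on the log2 scale, adjusted p = 3.75e-06). ATP6V0E2, a form of the small e subunit, rose in co-culture under stimulation (1.82 ± 0.22 on the log2 scale, adjusted p = 7.81e-07). DMXL2, a protein that helps assemble the pump, rose with stimulation (1.70 ± 0.28 on the log2 scale, adjusted p = 0.000142) and with stimulation in co-culture (2.94 ± 0.29 on the log2 scale, adjusted p = 5.77e-07), to 682 ± 51.2 CPM.

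Of 23 genes that deliver enzymes to lysosomes, 11 were higher and 6 lower with stimulation, 6 higher and 12 lower in resting co-culture, 8 higher and 8 lower in co-culture under stimulation, and 16 higher and 4 lower with stimulation in co-culture. SORT1, the sorting receptor sortilin, rose with stimulation (1.92 ± 0.19 on the log2 scale, adjusted p = 8.16e-07) and in resting co-culture (1.87 ± 0.19 on the log2 scale, adjusted p = 5.68e-07), whereas IGF2R, a mannose-6-phosphate receptor, fell with stimulation (-0.61 ± 0.06 on the log2 scale, adjusted p = 1.96e-07) and in resting co-culture (-1.22 ± 0.06 on the log2 scale, adjusted p = 2.59e-11). CLN6 and CLN8 carry new enzymes out of the endoplasmic reticulum. CLN6 fell in resting co-culture (-1.55 ± 0.14 on the log2 scale, adjusted p = 2.03e-08) and rose in co-culture under stimulation (0.91 ± 0.13 on the log2 scale, adjusted p = 5.16e-06), and CLN8 fell with stimulation (-1.17 ± 0.06 on the log2 scale, adjusted p = 9.06e-11).

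Of 22 tested genes that act on TFEB and its relatives at the lysosome, 9 were higher and 2 lower with stimulation, 5 higher and 11 lower in resting co-culture, 4 higher and 11 lower in co-culture under stimulation, and 10 higher and 9 lower with stimulation in co-culture. In co-culture under stimulation 8 were higher and 11 lower without replicate 4 of M0+LPS/IFNg, where 77.5% of all genes were called. FNIP2 and FNIP1, partners of folliculin in the complex through which mTORC1 controls TFEB and TFE3, were lower in co-culture under stimulation. FNIP2 went from 263 ± 88.4 to 31.3 ± 5.07 CPM (-3.07 ± 0.18 on the log2 scale, adjusted p = 7.04e-10) and FNIP1 from 109 ± 6.71 to 33.1 ± 3.06 (-1.73 ± 0.07 on the log2 scale, adjusted p = 3.03e-13). In resting co-culture FNIP2 (-1.55 ± 0.17 on the log2 scale, adjusted p = 1.03e-06) and FLCN, folliculin itself, (-0.85 ± 0.08 on the log2 scale, adjusted p = 3.27e-08) also fell. TSC1, a brake on mTORC1, fell in co-culture under stimulation (-1.06 ± 0.09 on the log2 scale, adjusted p = 4.98e-09).

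Macrophage and stromal markers moved with the groups. Summed over their list, macrophage markers were at 1574 ± 42.4 CPM in M0, 1551 ± 47.4 in M0+iMSC, 3264 ± 1184 in M0+LPS/IFNg and 5005 ± 86.8 in M0+LPS/IFNg+iMSC. Of the 9 tested, 7 were higher and 1 lower with stimulation, 2 higher and 2 lower in resting co-culture, and 5 higher and 1 lower in co-culture under stimulation. Without replicate 4 of M0+LPS/IFNg these counts were 6 and 1, 4 and 4, and 8 and 1. Over all genes 57.4% were called for stimulation, 69.8% for resting co-culture, 74.7% for co-culture under stimulation and 74.4% for stimulation in co-culture. ITGAM was the marker lower with stimulation, at 188 to 202 CPM in M0 and 47.3 to 71.2 in M0+LPS/IFNg. Summed stromal markers were at 1435 ± 26.0, 1389 ± 161, 1075 ± 183 and 224 CPM (lowest 204, highest 241) in the same order. Of 10 tested stromal markers, 3 were higher and 4 lower with stimulation, 6 higher and 2 lower in resting co-culture, 2 higher and 5 lower in co-culture under stimulation, and 5 higher and 5 lower with stimulation in co-culture. NT5E was the largest part of the stromal sum in every group. It was at 1279.8 ± 25.6 CPM in M0, 558 ± 63.1 in M0+iMSC, 890.2 ± 129 in M0+LPS/IFNg and 111 ± 12.3 in M0+LPS/IFNg+iMSC, and PDGFRA was at 80.8 ± 2.44, 441 ± 99.8, 119.9 ± 50.1 and 60.5 ± 5.57 CPM. In each library 3 to 7 of the 15 stromal markers were at 0. COL1A2 was at or near 0 in all groups, and COL6A3 was at 13.8 ± 1, 282 ± 8.09, 4.26 ± 2.49 and 0.626 ± 0.0738 CPM in the same order. DCN was at 0 in M0 and at 0.787 ± 0.398, 0.0662 ± 0.0779 and 18.8 ± 2.02 CPM in the other groups in that order. PRRX1 was at 15.8 ± 0.409, 61.4 ± 5.53, 32.3 ± 10.3 and 1.37 ± 0.353 CPM, and PDGFRB at 14.7 ± 0.97, 28.6 ± 4.56, 2.35 ± 1.04 and 1.35 ± 0.419 CPM. The part of stromal RNA or of macrophage state in the lysosomal results was not tested.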

How the data were processed

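Gene-level read counts of 16 RNA libraries, 4 in each of 4 groups, were used as the authors deposited them, with 1 column per library. HISAT2 and HTSeq are named in the submitters' processing notes, with no versions, and the genome build is GRCh38. No source used here states the strand setting. Exon lengths in bases are those the authors deposited. Libraries were matched to groups through the labels; the columns of the co-cultured groups carry the letters CM, which the labels do not explain.

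From the counts, edgeR 4.0.16 in R 4.3.3 kept 15301 of 60664 genes (filterByExpr), scaled libraries by TMM (mean factors 0.984 in M0, 1.08 in M0+iMSC, 0.822 in M0+LPS/IFNg and 1.14 in M0+LPS/IFNg+iMSC) and fitted 1 robust quasi-likelihood model to all 16 libraries, with no covariate and 12 residual degrees of freedom. The 5 contrasts were stimulation, co-culture at rest, co-culture under stimulation, stimulation in co-culture and their interaction. P-values were two-sided and adjusted by Benjamini-Hochberg over all tested genes of a contrast, with a threshold of 0.05. The standard error is the absolute log2 fold change divided by the square root of F. In the plot of the M0+LPS/IFNg library that stood apart, a small constant was added to CPM before log2 was taken. The script was tested on simulated counts.

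The 45 genes and the other gene lists were chosen with earlier results of these data known, so their counts are descriptions. Values in every library are given for the 3 called genes with the largest rise and the 3 with the largest fall in each contrast at an average log2 CPM of 3 or more, and always for TFEB, TFE3, MITF, LAMP1 and MCOLN1. SCARB2, IDUA and ATP6V1A were added after their values were seen. Of each further pathway list up to 3 called genes with the largest change in a contrast are named. Alternatives were RLE and upper-quartile factors, library totals without factors, no filter, a minimum of 10 counts in 4 libraries, DESeq2 1.42.0, limma-voom (limma 3.58.1), a fit of only the groups compared, a replicate block and left-out libraries. No 2 libraries of a group agreed within sampling noise (lowest chi-square per degree of freedom 1.88 over 24 pairs).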

Additional observations from a re-analysis of the deposited data

Results flagged for a closer look

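Over 180 tests of 45 genes in 4 groups of 4 libraries, 33 groups held a library whose gap to the nearest other library exceeded Dixon's 95% critical share of the range of the group. Chance alone flags about 1 in 20 groups. In 24 of the 33 the library was replicate 4 of M0+LPS/IFNg, which read 303 CPM for LAMP1, 354 CPM for LAMP2, 1136 CPM for CD63, 943 CPM for SCARB2, 58.7 CPM for HEXA, 259.9 CPM for GLA, 51.9 CPM for GAA, 84.5 CPM for GUSB, 210.3 CPM for NEU1, 273 CPM for MAN2B1, 81.9 CPM for MANBA, 112 CPM for FUCA1, 35.2 CPM for SGSH, 392 CPM for ASAH1, 3028 CPM for PSAP, 309 CPM for TPP1, 1895 CPM for PPT1, 10.3 CPM for CLN3, 201 CPM for TFE3, 40.8 CPM for MITF, 215 CPM for ATP6V0D1, 91.7 CPM for ATP6V1D, 250.6 CPM for ATP6V1F and 357 CPM for ATP6AP1.

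In M0+LPS/IFNg+iMSC replicate 4 was high for CD63 (472 CPM), MAN2B1 (497 CPM), ARSA (44.7 CPM) and GM2A (177 CPM), and replicate 3 for ATP6V0B (220.4 CPM). In M0 replicate 2 was high for SCARB2 (374 CPM) and replicate 1 for MCOLN1 (20.9 CPM). In M0+LPS/IFNg replicate 3 was low for ATP6V0A1 (65.5 CPM), and in M0+iMSC replicate 1 was high for ATP6V1A (128 CPM).

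The co-culture effect differed between stimulated and resting cells, by edgeR's interaction test, in 26 of the 44 tested genes (62.1% of all genes were called). The interaction (log2 co-culture difference under stimulation minus that at rest) was positive for LAMP1 (0.91), GLB1 (0.35), MAN2B1 (0.77), IDUA (2.14), SGSH (1.44), GALC (1.48), PSAP (1.09), PPT1 (0.60), CLN3 (1.55), TFEB (0.93), TFE3 (0.44), MITF (0.69), ATP6V0D1 (0.47) and ATP6V1A (0.31). It was negative for CD63 (-0.84), NEU1 (-0.44), FUCA1 (-1.53), SMPD1 (-0.52), ATP6V0A1 (-0.22), ATP6V0B (-0.53), ATP6V1B2 (-0.56), ATP6V1D (-0.68), ATP6V1E1 (-0.55), ATP6V1G1 (-0.73), ATP6V1H (-1.36) and ATP6AP2 (-0.61). All of these tests use the M0+LPS/IFNg group, and without its replicate 4 the interaction was positive for 25 genes and negative for 12.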

How the results depend on the processing

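Over the named genes and contrasts 5690 recomputed values were called in the same direction as in the main fit, or were called in neither fit. Changes of sign without a call in either fit are among these 5690. A call was gained by 114 values and lost by 77, and 15 turned in sign with a call in either fit. With all libraries the counts of higher and lower genes were 23 and 8 for stimulation, 14 and 17 for co-culture at rest, 15 and 15 for co-culture under stimulation, 22 and 11 for stimulation in co-culture and 14 and 12 for the interaction. With library totals and no factors there were 10 higher and 14 lower for stimulation (16.5% and 45.3% of all genes), 27 higher for co-culture under stimulation (59% of all genes) and 24 positive interactions (45.9% of all genes), with the median of the 44 genes at -0.0448 for stimulation and 0.103 for co-culture at rest (0.0259 with upper-quartile factors). The median of all tested genes was then -0.25 for stimulation, 0.17 for co-culture at rest, 0.50 for co-culture under stimulation and 0.35 for the interaction. Single genes turned in sign with library totals. For stimulation these were ATP6V0B (-0.0105), ATP6V1B2 (-0.10), ATP6V1C1 (-0.0328), ATP6V1G1 (-0.14), ATP6V1H (-0.0127) and ATP6AP1 (-0.0163), and for co-culture at rest ATP6V1G1 (0.0330). For co-culture under stimulation they were SMPD1 (0.00538), MITF (0.43), ATP6V0A1 (0.46) and ATP6V0D1 (0.36), and for the interaction ATP6V0A1 (0.12). The cause was not tested.

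When each library was left out in turn, stimulation gave 21 to 23 higher and 5 to 12 lower genes (5 without M0+LPS/IFNg replicate 1, 2 or 3, 12 without its replicate 4), and co-culture at rest 14 to 18 and 16 to 20. Co-culture under stimulation gave 14 to 24 higher genes (24 without M0+LPS/IFNg replicate 4) and 15 lower in each, stimulation in co-culture 22 to 26 and 10 to 12, and the interaction 14 to 25 positive (25 without M0+LPS/IFNg replicate 4) and 11 to 13 negative. Over these fits SCARB2 ran from -0.57 to 0.40 for stimulation, and for co-culture under stimulation GLA ran from -0.23 to 0.23 and MITF from -0.14 to 0.27, with the last sign in each case set by replicate 4 of M0+LPS/IFNg. No clear pairing of libraries by replicate number was seen: same-number correlations ran from -0.19 to 0.24 over 24 pairs, 5 of them above 0.1, and 3 of 16 libraries correlated best with their own number. With 4 libraries in a group this check cannot exclude a weak pairing, and the labels do not state one. With the replicate block the counts were 23 and 9, 14 and 17, 17 and 15, 22 and 11, and 17 and 12 in the same order of contrasts.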
